A study of Arabidopsis thaliana with 8 samples.

Results

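The drought response of wild-type Arabidopsis was read from 4 of the 8 RNA sequencing libraries in a series built around VaWRKY14, a WRKY transcription factor of grapevine. The members are the 2 libraries titled as drought-stressed WT plants and the 2 titled as non-stressed WT plants. Droughted WT plants were 3 weeks old, of the accession Col-0, and had been left without water for 5 days. Watered WT plants had the same age and accession and were kept under normal watering. The other 4 libraries, 2 droughted and 2 watered, came from Col-0 plants of that age that overexpressed VaWRKY14 (OE), which the labels call a transgenic mixture. For 1 droughted OE library the genotype label gives VaWRKY15 while its title gives VaWRKY14. The OE libraries lend their spread to the tests below and serve for 1 comparison of responses. How many plants went into a library, and whether the 2 libraries of a group came from separate pots or days, is not given in the labels, so p-values measure only the spread between these samples, which may be technical.

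When soil dries, plants raise abscisic acid (ABA), which closes stomata and switches on protective genes. ABA binds receptors of the PYR/PYL family, the receptors block clade A PP2C phosphatases, and SnRK2 kinases released from those phosphatases activate ABF transcription factors, which bind ABRE elements in promoters. A second route runs through CBF and DREB factors, which bind the DRE element. In leaves, prolonged drought is also known for lower expression of photosynthesis genes, altered nitrogen use and anthocyanin build-up.

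The WT libraries held 9591274 to 11378571 expected counts, and all 8 libraries fell in that range. A count of 3, used as the floor for a gene at 0, was worth 0.243 to 0.295 CPM in the WT libraries, where CPM divides counts by TMM-corrected library sizes. Along the second principal component, with 15.2% of the variance, the first watered WT library lay at -41.43, while the other 7 libraries lay between -6.37 and 24.77. Counts for most lists below are therefore also given without each library where they changed. The label of whole plants was checked against marker genes. Of 19 root markers, 13 and 11 were at 0 counts in the droughted libraries and 15 in each watered library, and the root-hair expansins EXPA7 and EXPA18, COBL9, CASP1 and the phosphate transporter PHT1;1 were at 0 in all 4. Leaf transcripts such as LHCB1.3 were abundant, so the labelled whole plants were seen here without most root markers. The summed level of 11 flower markers was 36.6 and 43.4 CPM in droughted plants, against 29.7 and 24.2 CPM in watered plants. For 12 pollen and tapetum markers the sums were 63.3 and 77.5 CPM under drought, against 61.7 and 61.9 CPM with water. The part of these differences in the results below was not tested.

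Of 19259 genes tested, 2505 (13.0%) were called, that is, had an adjusted p under 0.05 in edgeR's quasi-likelihood test with Benjamini-Hochberg adjustment. Higher in droughted plants were 1085 genes (5.63%) and lower were 1420 (7.37%). A change of at least 2-fold was reached by 299 of the higher genes (1.55% of those tested) and 284 of the lower ones (1.47%). The median log2 fold change over all genes tested was 0.02, and the central 90% of genes lay between -0.74 and 0.78. At an unadjusted p under 0.05 there were 5173 genes (26.9%). Both droughted libraries stood above both watered ones in 28.8% of genes and below them in 25.7%. Without 1 library the counts were smaller: 640 higher and 1105 lower without the first droughted library, 526 and 592 without the second, 816 and 1158 without the first watered library, 607 and 1028 without the second. For gene lists, counts with 1 WT library left out are given below in that same order of the 4 libraries. List counts are to be read beside the 5.63% of all genes called higher and the 7.37% called lower. Those shares also apply where they are not repeated, as for amino-acid breakdown and heat-shock genes. A few calls in a short list can lie near them. With DESeq2 631 were higher and 1294 lower (32.8% rises). On deposited FPKM values without rescaling, limma called 3882 higher and 704 lower, so that 84.6% of its calls were rises, against 43.3% in the count model. That scale moved the median of all genes to 0.23, and with FPKM rescaled by the TMM factors limma gave 1028 higher and 1264 lower.

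Per unit of length, the most abundant transcript in droughted plants was that of LHCB1.3, a light-harvesting protein of photosystem II, at a mean of 9851 FPKM, against 21185 FPKM in watered plants. MT3, a metallothionein that binds metal ions, came next with 8770 FPKM under drought, against 3672 FPKM with water. MT3 had 4974 and 3974 CPM in the droughted libraries, against 2311 and 2107 CPM in the watered libraries. It rose by 1.02 ± 0.19 on the log2 scale (SE, n = 2 per group; edgeR adjusted p = 0.00237). A second metallothionein, MT2B, rose by 0.73 ± 0.18 (adjusted p = 0.0152), a call lost without the first droughted (adjusted p = 0.0868), the first watered (0.0746) or the second watered library (0.0632). Next by FPKM stood RBCS1A, a small subunit of Rubisco, LHB1B2, a further light-harvesting gene, the RNA-binding protein gene GRP7, PSBR and the catalase CAT3. GRP7 stood at -0.02 ± 0.18, PSBR at -0.49 ± 0.21 and CAT3 at -0.23 ± 0.20, and none of these 3 passed the test.

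The ABA pathway was described first, in the order of its roles. Among genes of ABA synthesis and breakdown, 2 of 11 tested rose and 1 fell, with a median log2 fold change of 0.09. Over all genes tested 5.63% were called higher and 7.37% lower. With 1 library left out, 2, 1, 1 and 2 rose and 1 fell each time. CYP707A2, an ABA 8'-hydroxylase that breaks ABA down, had 12.6 and 11.5 CPM in droughted plants, against 3.22 and 1.83 CPM in watered plants. The groups did not overlap, and the gene rose by 2.25 ± 0.25 (edgeR adjusted p = 6.19e-05). CYP707A1, which has the same activity, rose by 1.404 ± 0.31 (adjusted p = 0.0187), with the call lost without the second droughted (0.13) or the first watered library (0.09). BG1, a glucosidase that frees ABA from its stored glucose ester, had 552 and 622 CPM under drought, against 1737 and 1395 CPM with water. Every droughted value of BG1 was under every watered value, and it fell by 1.42 ± 0.22 (adjusted p = 0.00118). NCED3, which catalyses the step of ABA synthesis that drought is known to raise, had 7.56 and 7.28 CPM in droughted plants, against 8.19 and 5.77 CPM in watered plants. Here the groups overlapped, and NCED3 stood at 0.09 ± 0.21 (adjusted p = 0.834).

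Among ABA receptors 2 of 8 tested rose and 0 fell (1, 2, 2 and 2 rose with 1 library left out), and the list's median was 0.28. PYL9 had 19.1 and 22.6 CPM under drought, against 11.8 and 10.9 CPM with water, and rose by 0.88 ± 0.17 (adjusted p = 0.00285). PYR1 rose by 0.62 ± 0.13 (adjusted p = 0.00462), a call lost without the first droughted library (0.0625), while PYL4 stood at 0.13 ± 0.24 (adjusted p = 0.787). Of the clade A PP2C phosphatases, which hold the pathway off when ABA is low, 3 of 7 rose and 0 fell, with a median of 0.44. Leaving out 1 library gave 2, 2, 3 and 1 rises and 0, 0, 0 and 1 falls. PP2CA had 151 and 157 CPM in the droughted libraries, against 72.3 and 87.2 CPM in the watered ones. Both droughted values were the higher ones, and PP2CA rose by 0.95 ± 0.13 (adjusted p = 0.000235). HAI2 rose by 1.43 ± 0.30 (adjusted p = 0.00505, and 0.0531 without the second watered library), whereas its relative HAI1 stood at -0.55 ± 0.23 (adjusted p = 0.136). The third phosphatase called was ABI2, at 0.56 ± 0.17. Its call was lost without the first droughted (adjusted p = 0.149), the second droughted (0.113) or the second watered library (0.306, at 0.33).

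The 11 SnRK2 kinases and ABF-type factors tested all stood above 0, the median at 0.34, and 3 of them were called, against 1, 0, 2 and 2 with 1 library left out. ABI5, a bZIP factor of ABA responses in seeds and seedlings, had 6.29 and 8.01 CPM under drought, against 2.83 and 3.65 CPM with water. It rose by 1.14 ± 0.25 (adjusted p = 0.00666), and the call was lost without the second droughted library (adjusted p = 0.0885). SNRK2.6, the kinase OST1 that closes stomata, rose by 0.53 ± 0.13 (adjusted p = 0.0171). Its 2 droughted values nearly coincided at 23.5 and 23.7 CPM, against 15.7 and 17.0 CPM in watered plants, yet the call held only without the second watered library, with adjusted p between 0.0685 and 0.0982 in the other 3 fits. SNRK2.7 stood at 1.01 ± 0.32 and was called by a narrow margin (adjusted p = 0.0499) that no fit without a WT library kept (adjusted p of 0.0708 to 0.259). ABF3, which binds ABRE elements, stood at 0.39 ± 0.14 (adjusted p = 0.0769).

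Of 21 ABA-responsive effector and LEA protein genes tested, 8 rose and 0 fell, with a median log2 fold change of 0.52. With 1 library left out 3, 4, 10 and 4 rose and 0, 0, 0 and 2 fell. RD29A, a hydrophilic protein named for its response to desiccation, had 197 and 172 CPM in droughted plants, against 127 and 108 CPM in watered plants. It rose by 0.65 ± 0.13 (adjusted p = 0.00351), a call kept without each WT library in turn. COR15A, which protects chloroplast membranes, had 270.1 and 230.02 CPM under drought, against 147 and 146 CPM with water. It rose by 0.77 ± 0.22 (adjusted p = 0.0442), with the groups apart, but no fit without a WT library kept the call (adjusted p of 0.147 to 0.249). The lipid transfer protein genes LTP3 and LTP4 changed most in the list, from low levels. LTP3 had 4.91 and 7.69 CPM in the droughted libraries, against 0.39 and 0.096 CPM in the watered libraries, and rose by 4.65 ± 0.50 (adjusted p = 4.18e-05). LTP4 had 3.04 and 5.99 CPM under drought, against 0.293 and 0 CPM with water, and rose by 4.87 ± 0.69 (adjusted p = 0.000564). With watered counts near 0 these sizes are uncertain: without the first and second watered library the fitted values were 5.89 and 3.99 for LTP3 and 8.66 and 3.92 for LTP4, the 8.66 against a lone watered library at 0, where it depends on the prior count. These are neighbouring, similar genes, so the division of reads between them is uncertain. KIN2 (0.75), the dehydrin COR47 (0.52), RD22 (0.53) and the homeobox gene ATHB12 (0.61) were also called, each with the call lost in 2 or more of the 4 fits without a WT library, and RD22 at 0.81 and 0.30 without the first and second watered library. The dehydrin RAB18 stood at 1.07 ± 0.35 and missed the threshold (adjusted p = 0.057). RD29B, an ABRE-driven relative of RD29A, had 2 and 1 counts under drought, against 1 and 4 counts with water, too few to be tested.

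The promoters of RD29A and COR15A are shown because both genes are classic carriers of the DRE element. The windows cover the 250 bases before the annotated gene start in RefSeq's TAIR10.1 assembly, 5′ to 3′ along the gene, with capitals on DRE (GCCGAC or ACCGAC), ABRE (ACGTGGC or ACGTGTC), G-box (CACGTG) and W-box (TTGACC or TTGACT) matches on either strand.
RD29A (chr5:21240467-21240716, plus strand): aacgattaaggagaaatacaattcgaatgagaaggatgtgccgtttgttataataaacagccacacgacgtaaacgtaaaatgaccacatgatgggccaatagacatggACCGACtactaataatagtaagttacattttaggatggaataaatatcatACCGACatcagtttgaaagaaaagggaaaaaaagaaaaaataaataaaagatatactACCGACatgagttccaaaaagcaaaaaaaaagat
COR15A (chr2:17712331-17712580, minus strand): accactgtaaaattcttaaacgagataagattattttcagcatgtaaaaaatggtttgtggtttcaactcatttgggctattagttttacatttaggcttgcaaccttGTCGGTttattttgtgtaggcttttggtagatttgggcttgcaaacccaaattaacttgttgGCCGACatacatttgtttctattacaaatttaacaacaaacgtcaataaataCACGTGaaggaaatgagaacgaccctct
RD29A held 3 DRE matches, 141, 91 and 34 bases before the start, and no ABRE match in this window. COR15A held DRE matches at 142 and 80 bases and a G-box at 28 bases before the start. Across the list, 6 of 21 promoters (28.6%) held a DRE match, against 7.85% of the 19138 promoters of tested genes. An ABRE match was held by 3 (14.3%), against 7.3%. The list includes known carriers of DRE by choice, so its DRE share supports nothing by itself. Among genes called higher by at least 2-fold, 13.3% of promoters held an ABRE match and 6.46% a DRE match. Among those called lower by at least 2-fold the shares were 10% and 6.45%. An ABRE match without a size limit was found in 9.76% of promoters of the genes called higher and 8.92% of those called lower. These shares describe letters in short windows and say nothing of binding. Of the CBF and DREB factors that bind DRE, 1 of 9 rose, CBF3 at 4.32 and 3.88 CPM under drought, against 0.78 and 1.83 CPM with water, a change of 1.64 ± 0.36 (adjusted p = 0.00725, and 0.0644 without the first watered library). DREB2A stood at 0.08 ± 0.18 (adjusted p = 0.82). The 1 rise among these 9 factors stands beside the 5.63% of all genes called higher.

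**Figure D1:**
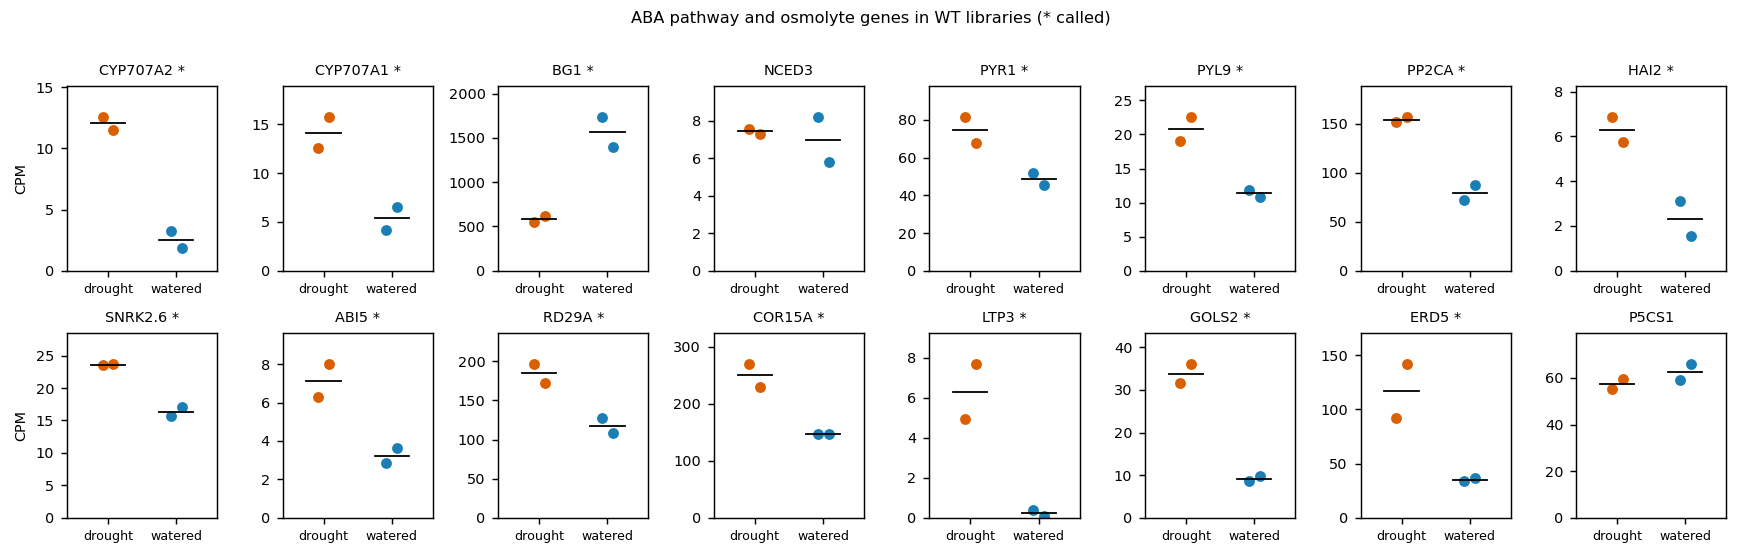
CPM in the droughted (left, orange) and watered (right, blue) WT libraries for genes of ABA turnover, signalling and output and of osmolyte metabolism, 1 panel per gene, each point a library, bars the mean of 2, and an asterisk for a called gene. All called genes show 2 groups that do not overlap, BG1 is the one that fell, and NCED3 and P5CS1 show no call.

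Among 19 genes of proline and osmolyte metabolism tested, 4 rose and 3 fell, with a median of -0.06. Leaving out 1 library gave 5, 3, 4 and 3 rises and 1, 1, 1 and 4 falls. GOLS2, a galactinol synthase that starts raffinose synthesis, had 31.5 and 36.1 CPM in droughted plants, against 8.68 and 9.71 CPM in watered plants. It rose by 1.88 ± 0.14 (adjusted p = 9.32e-07), and its relative GOLS3 by 2.48 ± 0.42 (adjusted p = 0.0012). ERD5, the proline dehydrogenase that starts proline breakdown, had 91.8 and 142 CPM under drought, against 34.0 and 36.4 CPM with water. The second droughted library was the higher of its pair, and ERD5 rose by 1.73 ± 0.27 (adjusted p = 0.00837). Without the first or second watered library its adjusted p was 0.0681 and 0.0684. P5CDH, a later enzyme of that breakdown and named here after its value was seen, was called lower at -0.37. Not every fit without 1 WT library kept this call, with fitted values of -0.46 to -0.27. P5CS1, the stress-linked enzyme of proline synthesis, stood at -0.12 ± 0.18 (adjusted p = 0.721), and its relative P5CS2 fell by 0.65 ± 0.12 (adjusted p = 0.00215). TPS1, which makes trehalose 6-phosphate, was called higher (0.61) and ADC2 of polyamine synthesis lower (-0.62), both with the call lost without the second droughted library (adjusted p = 0.126 and 0.0891) or the first watered library (0.0833 and 0.0598), and ADC2 also without the first droughted library (0.0654).

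Of all the pathway lists, that of the photosystems had the largest share of called genes. All 34 nuclear genes for light-harvesting and photosystem subunits had a negative log2 fold change. In all 34 the droughted libraries lay wholly under the watered ones, against 25.7% of all genes tested. Of these 34 genes 30 were called lower, with a median of -0.96, where 7.37% of all genes tested were called lower. Their summed level was 60762 and 43646 CPM in the droughted libraries, against 99994 and 117590 CPM in the watered libraries, so the droughted mean was 48.0% of the watered mean. Whether each cell held less of this RNA or fewer such cells were sampled cannot be told apart in whole-plant RNA. LHCB1.3 had 13547 and 8601 CPM under drought, against 25528 and 30530.0 CPM with water, and fell by 1.34 ± 0.27 (adjusted p = 0.00391). LHCB3, of the trimeric antenna of photosystem II, fell by 1.54 ± 0.24 (adjusted p = 0.000997). On the photosystem I side PSAN, which lies at the lumenal face, had 480.2 and 352 CPM in droughted plants, against 986 and 1156 CPM in watered plants. It fell by 1.36 ± 0.17 (adjusted p = 0.000143), and PSAG by 1.25 ± 0.19 (adjusted p = 0.000652). The count of falls was 31, 18, 31 and 22 with 1 library left out. The LHCB1 genes are close copies of each other, so reads may be split between them unevenly. LHB1B1, a member of that family outside the list, was among the 12 genes with the largest falls. It had 488 and 242 CPM under drought, against 3056 and 3799 CPM with water, and fell by 3.23 ± 0.50 (adjusted p = 0.012, and 0.0608 without the second watered library).

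The promoter of LHCB1.3 is shown because ABRE letters were frequent among the photosystem genes, where 9 of 34 promoters (26.5%) held a match, against 7.3% of all tested genes.
LHCB1.3 (chr1:10477635-10477884, plus strand): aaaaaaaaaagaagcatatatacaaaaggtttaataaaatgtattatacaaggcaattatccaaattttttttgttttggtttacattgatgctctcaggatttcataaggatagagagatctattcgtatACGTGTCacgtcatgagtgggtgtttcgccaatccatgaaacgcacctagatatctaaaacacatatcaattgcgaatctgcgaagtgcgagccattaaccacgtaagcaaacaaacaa
The capitals mark an ABRE match 119 bases before the start. G-box matches were also frequent, in 6 of these 34 promoters, against 7.26% of all. The ABRE and G-box letters share ACGTG, so their matches can overlap and are not separate evidence. DRE matches were found in 1 of these 34 promoters (2.94%), against 7.85% of all, and W-box matches in 5 (14.7%), against 27.8% of all.

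In the Rubisco and Calvin cycle list all 15 genes had negative log2 fold changes and 10 were called lower, with a median of -0.68. RBCS3B, a Rubisco small subunit, had 2247 and 1742 CPM in the droughted libraries, against 5072 and 6597 CPM in the watered libraries. It fell by 1.55 ± 0.20 (adjusted p = 0.000234), RBCS2B by 1.39 ± 0.20 and RBCS1A by 1.04 ± 0.23 (adjusted p = 0.00755, and 0.104 without the second watered library). These subunit genes are near-identical, so their separate values are uncertain, while their fall was shared. CFBP1, the plastid fructose bisphosphatase, fell by 0.75 ± 0.13 and RPE, an epimerase of the cycle, by 0.68 ± 0.13, both kept without each WT library. Of the 15 genes, 9, 5, 9 and 6 were called lower with 1 library left out. In chlorophyll synthesis 11 of 15 genes fell and 0 rose, with a median of -0.66. CHLH, a magnesium chelatase subunit, had 272 and 249.8 CPM under drought, against 584 and 739 CPM with water. It fell by 1.34 ± 0.15 (adjusted p = 6.98e-05). HEMA1, which starts the pathway, fell by 0.93 ± 0.16 and CHLI1 by 0.94 ± 0.14. The falls numbered 10, 6, 11 and 7 with 1 library left out.

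**Figure D2:**
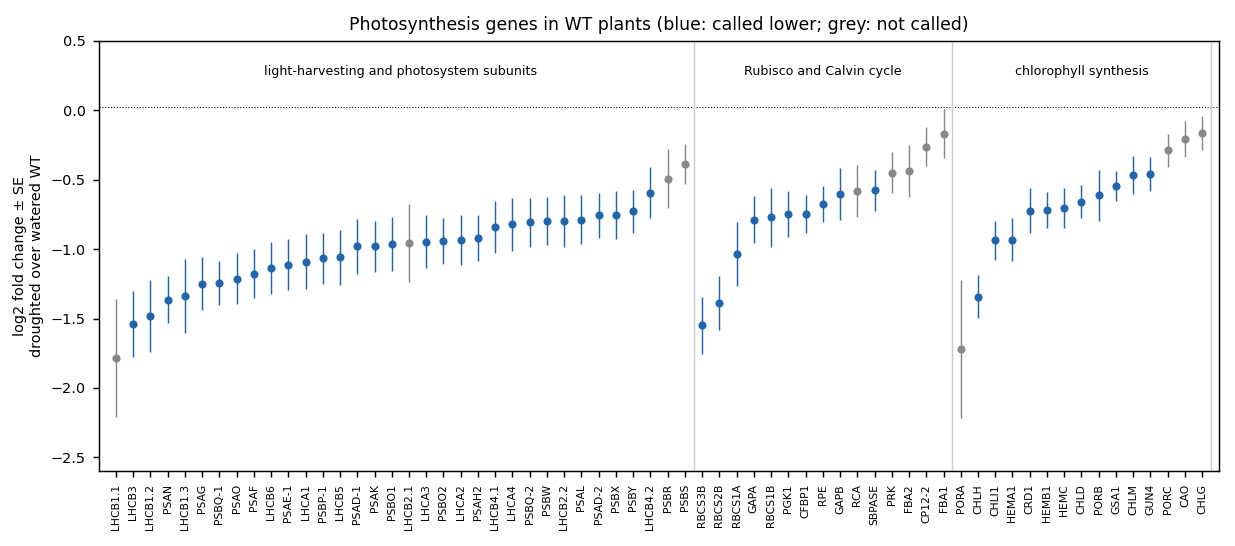
Log2 fold change of droughted over watered WT plants with its standard error (edgeR, 2 libraries per group) for each tested gene of 3 photosynthesis lists, blue where called lower and grey where not called; the dotted line is the median of all genes tested, 0.02. Every point lies under that line, and LHCB1.1 and PORA reach far down with wide error bars and no call.

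Of 25 genes that mark leaf senescence 1 rose and 1 fell, near the 5.63% and 7.37% of all genes, and the median was -0.08. SEN1, a gene raised in the dark and in ageing leaves, had 54.2 and 37.3 CPM in droughted plants, against 157 and 124 CPM in watered plants, and fell by 1.62 ± 0.22 (adjusted p = 0.00269). The riser was SEN4, also known as the wall enzyme XTH24, at 0.64 ± 0.14, whose call was lost without the first droughted (adjusted p = 0.0672) or the second watered library (0.0783). NYE1, which starts chlorophyll breakdown, stood at 0.09 ± 0.19 (adjusted p = 0.803). SAG12, a protease of late senescence, had 6.19 and 4.45 CPM under drought, against 0.098 and 0 CPM with water, where it rests on 1 count. It was not called (adjusted p = 0.276). With 1 library left out, 0, 1, 3 and 0 genes of the list rose and 1, 1, 1 and 7 fell. Among 9 dark and sugar-starvation genes 2 fell and 0 rose, with a median of -0.75 (0, 0, 2 and 2 fell with 1 library left out). DIN11 had 0.196 and 0.081 CPM in the droughted libraries, against 27.8 and 5.96 CPM in the watered libraries, which differed widely from each other. It was called lower (adjusted p = 0.0439), but not without the first (adjusted p = 0.164) or second droughted library (0.222). Of 22 autophagy genes 1 rose, near the 5.63% of all genes, and the list's median was 0.07. The riser was ATG8B, which coats the forming autophagosome, at 0.85 ± 0.14 (adjusted p = 0.00127).

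Nitrogen genes moved in both directions: of 26 tested, 9 rose and 7 fell, with a median of 0.02. Nitrate is reduced to nitrite by nitrate reductase and on to ammonium by nitrite reductase, and glutamine synthetase and glutamate synthase bring ammonium into amino acids. GLN1;4, a cytosolic glutamine synthetase, had 186 and 187 CPM under drought, against 14.7 and 11.5 CPM with water. Its 2 libraries per group lay close together, and its adjusted p of 1.53e-08 was the smallest of any gene. GLN1;1, of the same family, had 563 and 419 CPM in droughted plants, against 221 and 194 CPM in watered plants, and rose by 1.24 ± 0.15 (adjusted p = 0.000138). GDH3, a glutamate dehydrogenase subunit, rose by 2.35 ± 0.36, and GDH2 fell by 1.46 ± 0.22 (adjusted p = 0.000624 and 0.00333). The rises included 3 genes of nitrogen uptake. NRT2.5, a high-affinity nitrate transporter, had 3.34 and 4.45 CPM under drought, against 0.585 and 0.385 CPM with water. It rose by 2.99 ± 0.41 (adjusted p = 0.000305). DUR3, which takes up urea, rose by 0.81 ± 0.12 (adjusted p = 0.0004). AMT1;2, an ammonium transporter, rose by 1.41 ± 0.29 (adjusted p = 0.00644, and 0.0646 without the second droughted library).

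On the falling side were 2 genes of nitrate reduction. NIA2, the main nitrate reductase, had 36.2 and 17.9 CPM in droughted plants, against 271 and 187 CPM in watered plants. It fell by 3.09 ± 0.39 (adjusted p = 0.00769). NIR1, nitrite reductase, had 18.4 and 14.002 CPM under drought, against 73.0 and 64.0 CPM with water, and fell by 2.09 ± 0.14 (adjusted p = 5.22e-07). Both genes had droughted values far under the watered ones. NIA1, the other nitrate reductase and named here after its value was seen, had 13.1 and 6.8 CPM under drought, against 21.4 and 14.7 CPM with water, and was not called (adjusted p = 0.386). GLT1, the NADH-dependent glutamate synthase, fell by 1.44 ± 0.14, and the asparagine synthetase ASN2 by 1.15 ± 0.15 (adjusted p = 2e-05 and 0.000254). The plastid enzymes GLN2 and GLU1 were called at -0.69 and -0.62, GLN2 with adjusted p of 0.0977 without the second droughted library and GLU1 with 0.0547 without the second watered library. In the list, 8, 5, 7 and 8 genes rose and 7, 6, 7 and 6 fell with 1 library left out. Of 11 genes of amino-acid breakdown 1 rose and 1 fell, with a median of -0.27 (rises 1, 0, 2 and 0, falls 0, 0, 1 and 0, with 1 library left out).

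The promoter of GLN1;4 is given because no gene had a smaller adjusted p.
GLN1;4 (chr5:5424750-5424999, minus strand): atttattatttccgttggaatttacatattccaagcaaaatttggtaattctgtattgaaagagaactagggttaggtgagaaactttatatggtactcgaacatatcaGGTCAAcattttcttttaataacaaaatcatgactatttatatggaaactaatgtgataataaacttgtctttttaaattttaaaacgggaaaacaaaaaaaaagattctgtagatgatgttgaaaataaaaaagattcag
Its capitals mark the reverse complement of a W-box, 141 bases before the start, and no ABRE, G-box or DRE match was in the window. W-box matches were found in 23.4% of promoters of genes called higher, 27.9% of those called lower and 27.8% of all.

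**Figure D3:**
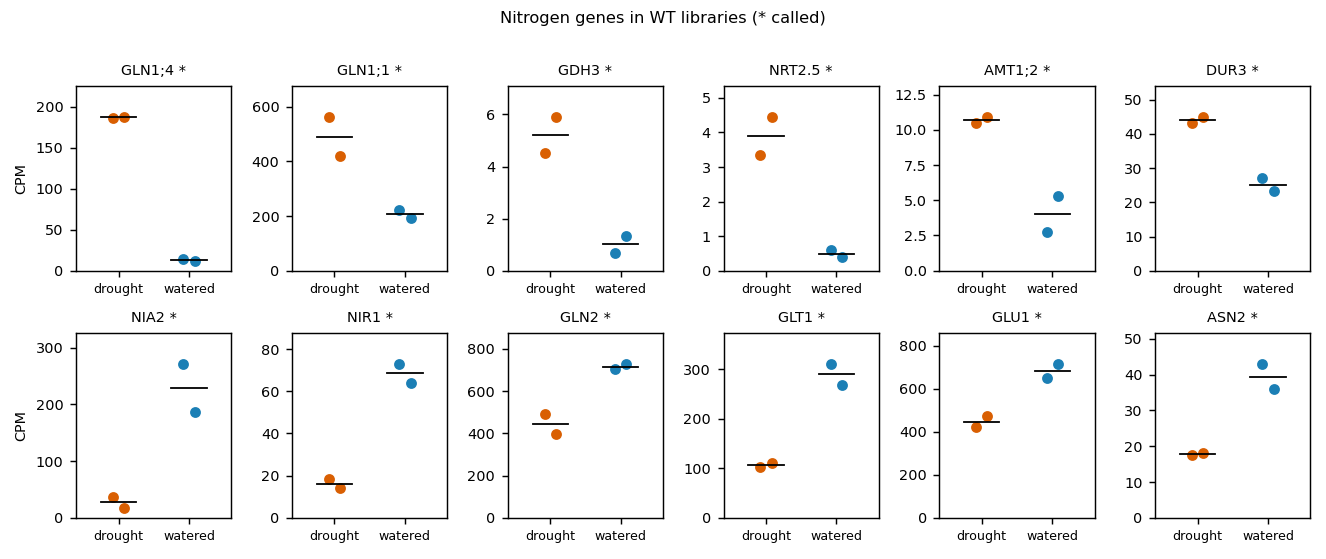
CPM in the droughted (left, orange) and watered (right, blue) WT libraries for nitrogen genes, each point a library, bars the mean of 2 and an asterisk for a called gene. The upper panels hold genes that were higher under drought, led by GLN1;4 at 186 and 187 CPM in droughted libraries against 14.7 and 11.5 CPM in watered ones, and the lower panels hold nitrate reductase, nitrite reductase and other assimilation genes that were lower.

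Anthocyanin genes had the highest median of the pathway lists, 1.69, with 7 of 14 tested called higher and 0 lower. Their summed level was 322 and 443 CPM in the droughted libraries, against 197 and 149 CPM in the watered libraries. The MYB regulator PAP2 had 27.6 and 31.6 CPM under drought, against 1.85 and 0.962 CPM with water. Its close relative PAP1 had 9.53 and 11.9 CPM in droughted plants, against 4.88 and 1.06 CPM in watered plants, and missed the threshold at 1.86 ± 0.49 (adjusted p = 0.0527). The bHLH partner TT8 was called at 1.78, with adjusted p of 0.0892 without the second droughted and 0.0683 without the second watered library. UF3GT, which adds a sugar to the pigment, had 12.1 and 15.2 CPM under drought, against 2.24 and 0.866 CPM with water, and rose by 3.13 ± 0.30 (adjusted p = 1.46e-05). 5MAT, which attaches a malonyl group, rose by 1.61 ± 0.29 (adjusted p = 0.00416). In all 7 called genes the second droughted library was the higher of its pair, as for TT19, the carrier of pigment to the vacuole, at 35.8 and 61.8 CPM. LDOX was called at 1.86 with adjusted p of 0.07 and 0.124 without the second droughted and second watered library. Rises numbered 6, 4, 8 and 5 with 1 library left out.

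The promoter of PAP2 is shown as that of the regulator with the largest called rise in this list.
PAP2 (chr1:24763691-24763940, plus strand): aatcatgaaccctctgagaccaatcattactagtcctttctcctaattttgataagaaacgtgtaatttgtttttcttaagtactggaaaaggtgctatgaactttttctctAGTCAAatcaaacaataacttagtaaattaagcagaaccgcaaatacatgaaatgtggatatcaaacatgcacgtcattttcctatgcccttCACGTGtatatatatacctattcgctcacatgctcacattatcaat
It held a G-box, 46 bases before the start, and a W-box, 138 bases before it. G-box matches were found in 11.6% of promoters of genes called at least 2-fold higher, 8.6% of those called at least 2-fold lower and 7.26% of all. Upstream in the same pathway, 5 of 14 flavonoid and flavonol genes rose and 0 fell, with a median of 0.75, and with 1 library left out 3, 3, 6 and 1 rose and 0, 0, 0 and 1 fell. F3H, a hydroxylase shared by flavonols and anthocyanins, had 12.4 and 15.1 CPM in droughted plants, against 3.8 and 3.56 CPM in watered plants. It rose by 1.90 ± 0.22 (adjusted p = 7.68e-05). Of the phenylpropanoid entry genes of the list, PAL1 at -0.44 ± 0.17 and C4H at -0.16 ± 0.12 were not called. The entry gene 4CL3 was called higher at 0.93, a call that not every fit without 1 WT library kept. Its fitted values in those fits were 0.72 to 1.12.

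Of 21 sugar transport genes 6 rose and 2 fell, with a median of 0.22. Leaving out 1 library gave 5, 4, 6 and 5 rises and 2, 0, 0 and 1 falls. SWEET13, which releases sucrose from cells, had 13.1 and 18.3 CPM under drought, against 1.37 and 1.15 CPM with water. SUC4, a vacuolar sucrose carrier, rose by 0.87 ± 0.16 and TMT2, which loads sugar into the vacuole, by 0.62 ± 0.12 (adjusted p = 0.00272 and 0.00339). ESL1, a vacuolar sugar exporter of the ERD6-like family, rose by 0.76 ± 0.12 (adjusted p = 0.00105). SUC2, which loads the phloem, had 275 and 287 CPM in the droughted libraries, against 138 and 174 CPM in the watered libraries. SUC2 rose by 0.84 ± 0.17 (adjusted p = 0.00464, and 0.0594 without the second droughted library). SWEET17, a fructose channel of the vacuole, was called at -0.69, with adjusted p of 0.0649 without the second droughted and 0.0753 without the first watered library.

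Of 33 jasmonate genes tested, 12 fell and 0 rose, 25 had a negative log2 fold change and 8 a positive one, and the median was -0.59. Their summed level was 2702 and 2589 CPM under drought, against 6491 and 4673 CPM with water. LOX2, the plastid lipoxygenase that starts jasmonate synthesis, had 653 and 509.7 CPM in droughted plants, against 2653 and 1840.4 CPM in watered plants. It fell by 1.95 ± 0.19 (adjusted p = 2.02e-05). AOC2, a later enzyme of the route, fell by 0.93 ± 0.17 (adjusted p = 0.00252). MYC2, the bHLH factor of the response, fell by 0.76 ± 0.14, and the repressor gene JAZ1, itself a target of MYC2, by 1.29 ± 0.17 (adjusted p = 0.00228 and 0.000475). JR2, a jasmonate-responsive cystine lyase, had 90.2 and 88.3 CPM under drought, against 442 and 295 CPM with water, and fell by 2.05 ± 0.18 (adjusted p = 4.2e-05). VSP2, a wound storage protein, stood at 0.38 ± 0.34 with overlapping groups (adjusted p = 0.557). The count of falls was 6, 5, 5 and 14 and that of rises 0, 0, 1 and 0 with 1 library left out, and with unscaled FPKM 3 rose and 6 fell.

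Defensin and ethylene-jasmonate branch genes had the lowest median of the pathway lists, -2.10, with 6 of 12 called lower and 0 higher. Their summed level was 445 and 304 CPM in droughted plants, against 4253 and 2059 CPM in watered plants, with the first watered library well above the second. PDF1.2, the defensin used as marker of the branch, had 45.8 and 25.8 CPM under drought, against 1532 and 756 CPM with water, and was called (adjusted p = 0.0141). The near-identical PDF1.2 copies leave the division of reads uncertain. Falls numbered 4, 0, 4 and 7 with 1 library left out. Without the second droughted library edgeR called 0, where DESeq2 on all libraries called 8, and PDF1.2 then had an adjusted p of 0.0971, against 0.0597 without the first. The chitinase CHI-B and the hevein-like HEL of the same list stood at -2.46 ± 0.68 and -2.51 ± 0.57 without a call. Of 16 ethylene genes 2 fell and 0 rose (falls 2, 1, 2 and 3, rises 0, 0, 0 and 0, with 1 library left out). ACS11, which makes the ethylene precursor, had 0.688 and 0.809 CPM in droughted plants, against 4.68 and 6.93 CPM in watered plants. It fell by 2.93 ± 0.46 (adjusted p = 0.0012). The 2 falls among 16 ethylene genes stand beside the 7.37% of all genes called lower.

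Among 27 salicylic acid and defence genes 6 fell and 1 rose, with a median of -0.47. CBP60G, a calmodulin-binding activator of salicylic acid synthesis, had 31.1 and 29.0 CPM under drought, against 52.9 and 54.0 CPM with water. It fell by 0.83 ± 0.13 (adjusted p = 0.000564). WRKY70 fell by 0.71 ± 0.15 (adjusted p = 0.00601, and 0.0785 without the second droughted library). PR1, the antimicrobial marker of the response, had 13.8 and 0.809 CPM in the droughted libraries, against 91.6 and 37.7 CPM in the watered libraries. Both pairs were uneven, and PR1 was not called (adjusted p = 0.163). With 1 library left out, 7, 2, 7 and 7 genes of the list fell and 0, 0, 0 and 0 rose. Of 21 group III and stress WRKY factors 5 fell and 0 rose, WRKY33 by 0.79 ± 0.14 (adjusted p = 0.00187) with 134 and 132 CPM under drought, against 237 and 221 CPM with water. Their count of falls was 3, 2, 2 and 5 and that of rises 0, 0, 0 and 1 with 1 library left out.

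Genes of touch and rapid stress, which react within minutes to handling, all had negative log2 fold changes, and 10 of 19 were called lower, with a median of -1.09. Their summed level was 1516 and 1283 CPM in droughted plants, against 2588 and 2966 CPM in watered plants. TCH3, a calmodulin-like calcium sensor, had 318 and 244 CPM under drought, against 715 and 831 CPM with water, and fell by 1.46 ± 0.18 (adjusted p = 0.000218). ZAT12, a zinc-finger factor of oxidative stress, had 2.46 and 3.08 CPM in the droughted libraries, against 9.56 and 12.4 CPM in the watered libraries. It was called (adjusted p = 0.0122) at -1.98, though not without the first droughted (adjusted p = 0.0902), the second droughted (0.0936) or the second watered library (0.0644). The list held 7, 2, 8 and 4 falls with 1 library left out. How plants were handled before harvest is not given in the labels, and its part was not tested.

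Genes for glucosinolates, the sulfur-rich defence compounds of this plant family, were called lower more often than higher. In the aliphatic branch 8 of 19 fell and 1 rose, with a median of -0.38, and in the indole branch 6 of 17 fell and 0 rose, with a median of -0.32. CYP79B2, which turns tryptophan into the first indole intermediate, had 30.1 and 28.7 CPM under drought, against 57.2 and 55.5 CPM with water. It fell by 0.94 ± 0.13 and its partner CYP79B3 by 0.97 ± 0.15 (adjusted p = 0.000351 and 0.00131). SOT16, which adds the sulfate group, fell by 0.99 ± 0.15 (adjusted p = 0.000682). The single riser was MAM3, which lengthens the aliphatic side chain, at 58.0 and 67.6 CPM in droughted plants, against 30.2 and 37.7 CPM in watered plants. It rose by 0.89 ± 0.13 (adjusted p = 0.00038), while IMD1, of the same chain-lengthening route, fell by 0.69 ± 0.13 (adjusted p = 0.00217). Aliphatic falls numbered 4, 2, 4 and 4 and indole falls 5, 4, 5 and 7 with 1 library left out.

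For water transport, of 17 aquaporins 1 rose and 2 fell, with a median of -0.09, near the shares over all genes. Leaving out 1 library gave 1, 1, 1 and 1 rises and 3, 1, 2 and 2 falls. PIP2;2 of the plasma membrane had 33.6 and 27.4 CPM under drought, against 54.7 and 51.7 CPM with water, and fell by 0.81 ± 0.13 (adjusted p = 0.000885). PIP2;5, of the same subfamily, had 22.3 and 19.2 CPM in the droughted libraries, against 9.75 and 11.2 CPM in the watered libraries. It rose by 0.98 ± 0.16 (adjusted p = 0.0012). For the lists that follow in this paragraph, the shares over all genes were again 5.63% called higher and 7.37% called lower. For the cuticle, 2 of 18 wax and cutin genes rose and 1 fell (rises 2, 0, 5 and 0, falls 0, 1, 0 and 2, with 1 library left out). CER1, of alkane formation, was called at 0.58 (adjusted p = 0.0151), and not without the second droughted (0.167) or the second watered library (0.0869). Of 12 stomatal and guard-cell genes SNRK2.6 alone was called (rises 0, 0, 0 and 1, falls 0, 0, 0 and 0 with 1 library left out). Among 32 cell-wall loosening genes 4 rose and 4 fell (rises 1, 2, 3 and 2, falls 3, 0, 5 and 1, with 1 library left out), with EXPB3, a beta-expansin, rising by 1.03 ± 0.12 (adjusted p = 0.000111) and the alpha-expansin EXPA8 at -0.42 ± 0.17 (adjusted p = 0.115).

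For growth and timing, of 22 auxin and growth response genes 6 rose and 2 fell, with a median of -0.03 (rises 5, 5, 5 and 5, falls 1, 1, 1 and 2, with 1 library left out). GH3.5, which couples auxin to amino acids, had 52.9 and 49.5 CPM in droughted plants, against 25.8 and 20.6 CPM in watered plants, and rose by 1.14 ± 0.13 (adjusted p = 6.67e-05). The auxin exporter PIN3 rose by 0.76 ± 0.11 and the repressor IAA3 by 0.89 ± 0.14, whereas IAA7, of the same repressor family, fell by 0.84 ± 0.14. In the gibberellin and brassinosteroid list 2 of 24 rose and 1 fell (rises 1, 1, 0 and 1, falls 2, 0, 0 and 0, with 1 library left out). Those 2 rises and 1 fall stood near the 5.63% and 7.37% of all genes. None of 20 mitotic cell cycle genes and none of 15 DNA replication genes was called by edgeR with all 8 libraries. DESeq2 also called 0 in both lists, while 2 mitotic and 2 replication genes had an unadjusted p under 0.05. On unscaled FPKM limma called 4 mitotic genes higher and 0 replication genes. The mitotic median was -0.11, and -0.17, 0.02, -0.32 and 0.19 with 1 library left out. Of 20 clock genes 7 rose and 0 fell, with a median of 0.30, and 4, 4, 4 and 2 rose with 1 library left out. CCA1, a morning factor of the clock, had 5.3 and 8.09 CPM under drought, against 1.56 and 1.44 CPM with water, and rose by 2.16 ± 0.36 (adjusted p = 0.00131). CDF1, a repressor of flowering that the clock times, rose by 1.07 ± 0.18 (adjusted p = 0.00138). The hour of harvest is not given in the labels, so its part was not tested.

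In the heat-shock and unfolded-protein list 2 of 16 fell and 0 rose (1, 0, 0 and 3 fell with 1 library left out). Among 26 antioxidant enzymes 4 fell and 1 rose, with a median of -0.13 (falls 4, 4, 4 and 3, rises 0, 1, 0 and 0, with 1 library left out). The falls were in plastid enzymes: APX4, named as an ascorbate peroxidase, had 118 and 107 CPM in droughted plants, against 257 and 322 CPM in watered plants, and fell by 1.36 ± 0.14 (adjusted p = 3.81e-05). TAPX, the thylakoid ascorbate peroxidase, fell by 1.099 ± 0.13 and GPX1 by 1.19 ± 0.15. FSD1, an iron superoxide dismutase, was called at -1.48, with adjusted p of 0.0713 and 0.0792 without the first and second watered library. Of 25 genes of iron, sulfur and phosphate status 4 rose and 4 fell (rises 3, 3, 4 and 3, falls 2, 1, 2 and 3, with 1 library left out). MGD3, a galactolipid synthase known from phosphate shortage, had 6.88 and 6.8 CPM under drought, against 0.585 and 0 CPM with water, and was called higher, with a fitted value of 4.50 ± 0.57 (adjusted p = 0.000324). The fitted value was 9.24 without the first watered library, which depends on the prior count because the remaining watered library was at 0, and 3.52 without the second. LSU2, known from sulfur shortage, rose by 1.34 ± 0.20, and the iron store FER3 fell by 0.95 ± 0.13. None of 18 reference genes was called by edgeR with all 8 libraries, where 4 had an unadjusted p under 0.05. DESeq2 called 2 of them lower and limma on unscaled FPKM 2 higher. Their median was -0.05, and -0.10, -0.06, -0.08 and -0.004 with 1 library left out.

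**Figure D4:**
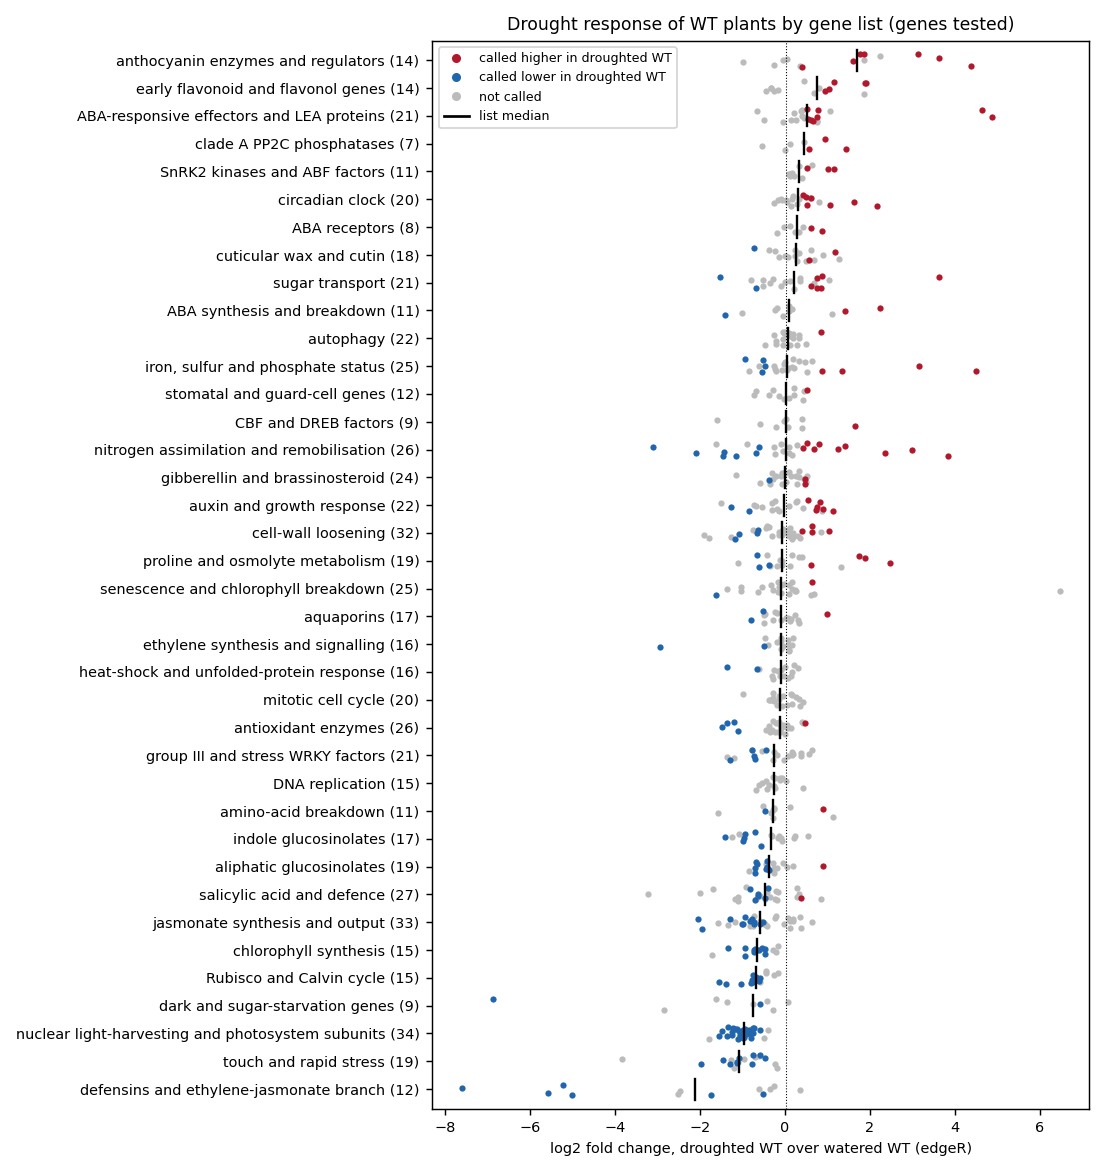
Log2 fold change of droughted over watered WT plants for every tested member of the pathway lists (number of tested genes in brackets), sorted by list median, with red for called higher, blue for called lower and grey for not called; the dotted line is the median of all genes tested. Anthocyanin genes lie at the top with a median of 1.69, and photosystem, touch and defensin genes at the bottom with medians of -0.96, -1.09 and -2.10.

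Some of the genes with large changes outside the lists follow, not in order of size. BT2, a BTB and TAZ domain protein, had 13.1 and 4.86 CPM in droughted plants, against 409.7 and 369 CPM in watered plants, and fell by 5.47 ± 0.44 (adjusted p = 0.00158). AT2G43590, of the chitinase family, had 1.57 and 2.43 CPM under drought, against 28.2 and 18.18 CPM with water, and fell by 3.505 ± 0.35 (adjusted p = 0.000253). Both genes kept their calls without each WT library in turn. AT3G15356, a legume lectin family gene, was called at -4.34, with adjusted p of 0.12 and 0.174 without the first and second droughted library. Also larger than the fall of AT2G43590 were those of AT4G36850 (-4.89) and AT2G20670 (-3.69), whose calls no fit without a WT library kept, and of AT1G49500 (-4.28), whose call was lost without either watered library (adjusted p = 0.0922 and 0.101). On the rising side NF-YA10, a subunit of the CCAAT-binding factor NF-Y, had 27.9 and 38.2 CPM in the droughted libraries, against 5.95 and 5.77 CPM in the watered libraries. It rose by 2.498 ± 0.18 (adjusted p = 8.43e-07). AT3G62960, of the thioredoxin superfamily, rose by 2.91 ± 0.24 and AT4G19430, an uncharacterized protein, by 2.69 ± 0.23 (adjusted p = 3.23e-06 and 5.29e-06). Larger rises were those of BOR5 (3.53), AT1G80130 (3.48) and AT1G34060 (3.47), each kept without every WT library in turn. NUDT24, a nudix hydrolase, had no count in either watered library and 358 counts in the droughted ones, which is at least 53.8-fold higher with 3 counts per library as the floor.

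The response was set beside that of OE plants, in which 3214 genes (16.7%) were called. The pair of responses shares no library, but both come from the same fit and share each gene's estimate of spread. Their lists of calls are therefore not independent. Of the genes called higher in droughted WT plants, 389 were also called higher in droughted OE plants, and 4 were called lower there. Those 389 are 35.9% of the WT genes, where 1303 of all 19259 genes tested were called higher in OE plants. They are 29.9% of the OE genes, where 5.63% of all genes tested were called higher in WT plants. Of the genes called lower in WT plants, 869 were also called lower in OE plants, and 8 were called higher. Those 869 are 61.2% of the WT genes, where 1911 of all 19259 genes tested were called lower in OE plants. They are 45.5% of the OE genes, where 7.37% of all genes tested were called lower in WT plants. The difference between the responses was tested for each gene, and 31 genes (0.161%) were called, 12 with a higher log2 fold change in WT plants (0.0623%) and 19 with a lower one (0.0987%), while 2407 genes (12.5%) had an unadjusted p under 0.05. Without 1 library the number of calls lay between 2, with the second droughted OE library left out, and 326, with the second watered WT library left out. It was 7 without the second droughted WT library, 51 without the first watered WT library, and 13 and 142 without the first and second watered OE library.

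GLN1;4 rose in both genotypes, by 3.83 in WT plants and by less in OE plants, with a WT minus OE difference of 1.73 ± 0.22 (adjusted p = 0.00866). AT1G23050, a hydroxyproline-rich glycoprotein gene, rose by 1.15 ± 0.12 in WT plants and stood at -0.15 in OE plants, a difference of 1.303 ± 0.17 (adjusted p = 0.00866). AT5G25240, annotated as stress induced, stood at 1.29 in WT plants and -0.23 in OE plants. GLYI4, of the glyoxalase I family, stood at -0.49 in WT plants and 2.98 in OE plants, a difference of -3.47 ± 0.45. These 4 were called in 13 of 14 alternative analyses, and all 31 genes had the same direction of difference in all 14. They were picked after their values were seen. COR15A stood at 0.77 in WT plants and -1.21 in OE plants, and its difference of 1.97 ± 0.30 missed the threshold (adjusted p = 0.0502). For RD29A the difference was 0.83 ± 0.18 (adjusted p = 0.0703) and for PP2CA 0.82 ± 0.18 (adjusted p = 0.0696), both without a call.

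**Figure D5:**
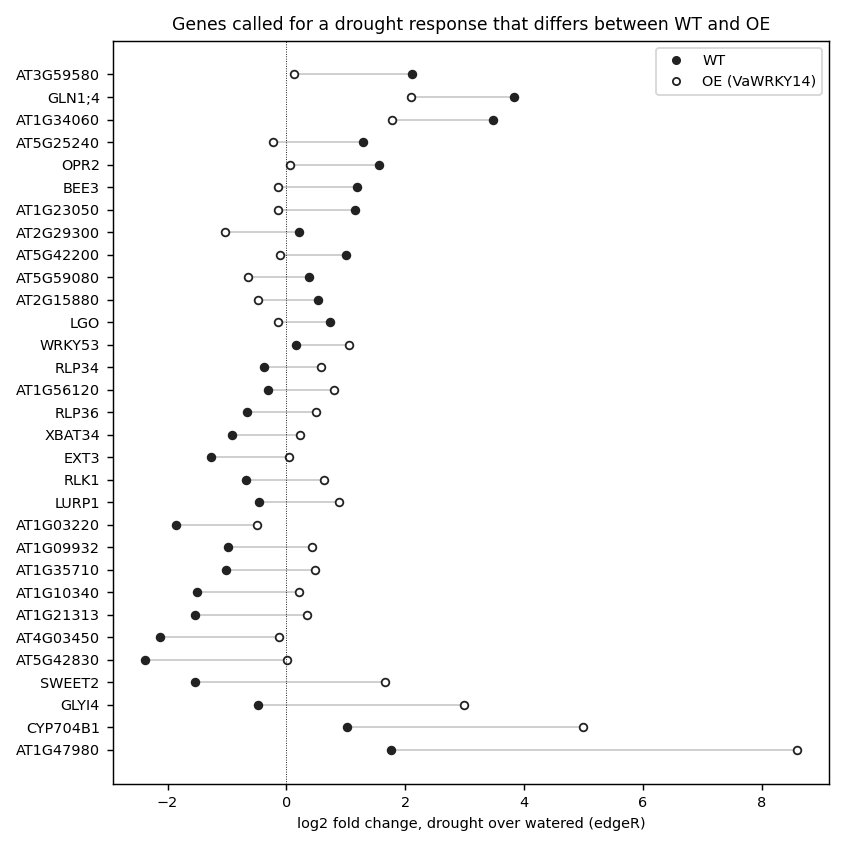
Log2 fold change of drought over normal watering in WT plants (filled) and OE plants (open) for the 31 genes called for a difference between the responses, sorted by that difference. GLN1;4 rose in both genotypes and further in WT plants (a difference of 1.73 ± 0.22), while GLYI4 stood at -0.49 in WT plants and 2.98 in OE plants.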

How the data were processed

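RNA sequencing measured transcript levels in 8 libraries of whole Arabidopsis plants. Per the file headers, the deposited files give an expected count and an FPKM value per gene and library. Per the submitters' processing notes the build was TAIR10, and the tools were HISAT2 2.0.5, STAR, featureCounts and edgeR, with no role or order given. Which of them counted, and whether strand was used, is not given in the sources used here, so reads of overlapping or antisense genes cannot be told apart. A gene missing from a file was taken as 0, since the deposited files list values above 0 only. Of 24132 gene identifiers listed, 23929 (99.2%) matched RefSeq's TAIR10.1 annotation by locus, which supplied symbols and promoters.

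Expected counts were rounded and fitted with edgeR 4.0.16 in R 4.3.3 (quasi-likelihood, robust, TMM scaling, filterByExpr with a minimum count of 10, 1 mean per group over all 8 libraries). The biological coefficient of variation was 10.2%. Genes were called at a Benjamini-Hochberg adjusted p under 0.05, and standard errors were taken from the log2 fold change and its F statistic. Levels are CPM on TMM-scaled library sizes, and levels of different genes are compared only as FPKM. Alternatives used DESeq2 1.42.0, limma 3.58.1 on log2(FPKM + 1), RLE scaling, no filter, the WT libraries alone, a replicate block and each library left out. The fit was also run on simulated counts in which only droughted WT libraries were changed. That setting is simpler than these data, and no result above rests on it. Tables and figures were made with Python 3.11.15, pandas 2.3.3, numpy 2.4.6 and matplotlib 3.10.9.

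Genes were named by rule: the 12 largest called rises and falls (mean CPM of 5 or more, droughted and watered WT libraries apart), up to 6 called and 2 uncalled members per list, fixed markers, and the 10 genes of highest FPKM. From these the text describes a selection and gives the remainder as counts. The libraries, lists and comparisons were chosen with earlier results of these data known, and so support nothing by themselves. For genes with few counts in 1 group, the log2 fold change depends on the prior count of the fit. The floor of 3 counts covers counting error only, while standard errors include the spread between libraries.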

Additional observations from a re-analysis of the deposited data

Results flagged for a closer look

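For 5 genes named above, the drought response of WT plants differed from that of OE plants by the test of the difference itself (edgeR's quasi-likelihood test). GLN1;4 differed by 1.73 ± 0.22 (WT minus OE, log2; adjusted p = 0.00866). AT1G23050 differed by 1.303 ± 0.17 (adjusted p = 0.00866) and AT5G25240 by 1.52 ± 0.21 (adjusted p = 0.00928). GLYI4 differed by -3.47 ± 0.45 (adjusted p = 0.00866) and AT1G34060 by 1.698 ± 0.25 (adjusted p = 0.0235). Each group held 2 libraries, and the labels name a second construct for 1 droughted OE library, whose part was not tested. Over 14 alternatives the highest adjusted p was 0.0554 for GLN1;4, 0.0667 for AT1G23050, 0.0783 for AT5G25240, 0.0543 for GLYI4 and 0.0887 for AT1G34060.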

How the results depend on the processing

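Counts called higher in droughted WT plants were 631 with DESeq2, 3882 with limma on unscaled FPKM and 526 to 1090 with 1 library left out, against 1085 as reported. Counts called lower were 704 on unscaled FPKM and 592 to 1488 with 1 library left out, against 1420. The difference between WT and OE responses gave 31 genes as reported, 202 without the filter on low counts, 146 with DESeq2, 7 on TMM-scaled FPKM (an alternative added after the data were seen) and 2 to 326 with 1 library left out. The cause was not tested. With the replicate block 1029 genes were higher, 1368 lower and 44 differed between genotypes. Same-numbered libraries did not deviate together (correlations of -0.0804 to 0.0625), so the numbers were not taken as pairs. No called gene named in the text changed direction under any alternative. Among uncalled genes, unscaled FPKM turned C4H to 0.09, GRP7 to 0.22 and P5CS1 to 0.12. With 1 library left out, GRP7 ranged over -0.15 to 0.09, NCED3 over -0.14 to 0.36, NYE1 over -0.22 to 0.48, PYL4 over -0.08 to 0.37 and VSP2 over -0.05 to 0.99.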

Other observations

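Several genes outside the lists that are known from nitrate signalling were called lower in droughted WT plants. They were chosen after their values were seen and do not stand for such genes as a group. LBD37, LBD38 and LBD39, repressors that nitrate is known to induce, all fell. LBD37 had 31.7 and 20.7 CPM in droughted plants, against 141 and 140.3 CPM in watered plants, and fell by 2.43 ± 0.25 (edgeR adjusted p = 0.000892). LBD38 had 3.34 and 3.08 CPM under drought, against 28.6 and 24.9 CPM with water, and fell by 3.06 ± 0.24 (adjusted p = 5.29e-06), and LBD39 fell by 2.56 ± 0.39 (adjusted p = 0.00529). The pairs of libraries did not overlap in any of the 3 genes. BT1 and BT5, of the same family as BT2, fell by 1.91 ± 0.15 and 2.53 ± 0.17 (adjusted p = 1.8e-06 and 9.51e-07). CLC-A, the exchanger that stores nitrate in the vacuole, had 11.4 and 8.26 CPM in the droughted libraries, against 70.5 and 72.9 CPM in the watered libraries. It fell by 2.88 ± 0.18 (adjusted p = 9.32e-07). UPM1, which makes the sirohaem that nitrite reductase carries, fell by 1.21 ± 0.12 (adjusted p = 2.64e-05), and FUM2, the cytosolic fumarase, by 3.11 ± 0.35 (adjusted p = 0.00416). The MYB-like genes AT1G25550 and AT1G68670 fell by 2.69 ± 0.24 and 2.15 ± 0.14 (adjusted p = 0.000429 and 5.22e-07). All of these calls were kept without each WT library in turn.

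Vacuolar proteases, purine breakdown and starch synthesis gave further called genes, likewise chosen after their values were seen. GAMMA-VPE, a vacuolar processing protease, had 1978 and 1902 CPM under drought, against 619.98 and 553 CPM with water, and rose by 1.73 ± 0.19 (adjusted p = 4.5e-05). BETA-VPE rose by 2.196 ± 0.25 (adjusted p = 7.1e-05). ALN, allantoinase, which opens the purine ring product allantoin, had 91.6 and 107 CPM in droughted plants, against 36.0 and 37.7 CPM in watered plants. It rose by 1.43 ± 0.13 (adjusted p = 6.4e-06), with the groups apart. GBSS1, the starch synthase bound to granules, rose by 2.104 ± 0.14 (adjusted p = 5.22e-07), whereas APL1, a subunit of the enzyme that supplies its substrate, fell by 1.03 ± 0.12 (adjusted p = 9.02e-05). NF-YA2, a relative of NF-YA10, rose by 1.75 ± 0.14 (adjusted p = 3.27e-06). ELIP1, a light-induced protein that shields the photosystems, had 5.99 and 6.64 CPM under drought, against 0.683 and 0.289 CPM with water, and rose by 3.68 ± 0.46 (adjusted p = 0.000156).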
